A study of Homo sapiens with 12 samples.

Results

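DPP4, SLC16A6, TFPI2 and TFRC are 4 of the 27106 genes in a table of RNA levels from human fibroblasts that were driven into senescence by oncogenic Ras. They were chosen by a readout of the same data, the difference between control cells and cells depleted of the interleukin-1 receptor in the change from day 0 to day 4 of Ras induction. All 4 had a smaller increase, or a decrease, in the cells depleted of the receptor. They are the 4 genes called in that comparison of 13924 genes tested (0.0287%), so their day 0 and day 4 values are described here without a test. The day 10 libraries took no part in the choice by their means, and the difference between genotypes on that day was tested.

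Oncogene-induced senescence is a lasting growth arrest in which cells secrete cytokines, proteases and matrix proteins, the senescence-associated secretory phenotype. Interleukin-1 signalling acts early in that programme, upstream of the transcription factors NF-kB and C/EBP. The 4 genes encode proteins of different kinds. DPP4 is a cell-surface peptidase that removes dipeptides after proline or alanine from hormones and chemokines. SLC16A6 is a membrane protein of the monocarboxylate transporter family, TFPI2 is a secreted Kunitz-type inhibitor of serine proteases that is laid down in the extracellular matrix, and TFRC is the transferrin receptor, through which cells take up iron.

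The libraries came from IMR90 lung fibroblasts, an established human line, carrying hTERT, the catalytic subunit of telomerase, and RasERT2, a Ras fusion switched on by tamoxifen. Every group shared these constructs and an shRNA induced with 0.5 ug/ml doxycycline, which was a scramble sequence (shScr) or one directed at the interleukin-1 receptor (shIL1R). The cells then received 200 nM tamoxifen, or ethanol as control, and poly(A) RNA was sequenced from growing cells at day 0, from cells entering senescence at day 4 and from senescent cells at day 10. There were 12 libraries in 6 groups of 2, and the series used 2 independent hairpins against the receptor. Within each group the libraries carry the numbers 1 and 2, without word on whether these mark hairpins or cultures, so the spread between them may be partly technical. Levels are normalized counts, that is reads divided by a factor for each library, and 1 read is worth 0.834 to 1.20 of them.

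The knockdown was visible in each shIL1R library. IL1R1, the targeted receptor, was at 1509 and 1552 in shScr cells and 731 and 378 in shIL1R cells at day 0. On day 4 the levels were 1546 and 1423 against 272 and 86.4, and on day 10 they were 1580 and 1240 against 295 and 280. On that last day IL1R1 was lower in shIL1R cells by a log2 difference of -2.28 ± 0.42 (SE, limma adjusted p = 0.0102). The libraries held 24140324 to 30127727 reads. Of 14 fibroblast markers 13 passed the filter on low values, all but TBX4, which reached at most 3.54. Their summed level at day 0 was 473296 and 426193 in shScr and 516311 and 527690 in shIL1R cells. At day 10 it was 361605 and 355619 in shScr cells. In shIL1R cells it was then 359570 in replicate 1 and 524711 in replicate 2. Of 7 epithelial markers none passed, with summed levels from 1.90 to 10.8. Of 6 endothelial markers 4 passed, with sums from 40.9 to 50.5 in shScr cells at day 0 and from 526 to 714 at day 10 (361 to 610 in shIL1R cells). TIE1 reached 539 and KDR 216, and CDH5 was at 0 in every library. Of 6 leukocyte markers 2 passed, with sums from 2849 at day 0 to 9072 at day 10 that came mostly from CD68, and CD3E was at 0. Of 6 muscle and neural markers 4 passed, with sums from 4982 to 7748. Their part in the results was not tested. One library stood apart from its partner: on principal component 1 (68.9% of the variance) shIL1R day 10 replicate 2 lay at 45.9 and replicate 1 at 77.2, against 90.5 and 89.2 in shScr cells.

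The mRNA of TFRC carries the best known regulatory sequences among these genes, and they are printed because the iron genes are compared with it below. Iron-responsive elements are short hairpins in mRNAs. Iron-regulatory proteins bind them when iron is scarce, which protects TFRC mRNA from decay and blocks translation of ferritin and ferroportin mRNAs. A search of GENCODE v29 transcripts for C, any 5 bases, CAGTG followed by A, C or T, and 5 bases able to pair with the first 5 found a match in a UTR of 122 of 19652 protein-coding genes (0.621%). Of the iron genes listed for this comparison, 5 had one, among them TF (transferrin, 1 match in the 3′ UTR, not shown). The others, SLC11A2 among them, had no match. Elements that depart from this pattern are missed, so a gene without a match may still carry one. TFRC had 4 matches, all in its 3′ UTR and on the same 3 transcripts, while FTH1 and FTL, the ferritin chains, and SLC40A1, the iron exporter ferroportin, had 1 each in the 5′ UTR. Capitals mark the 6-base loop, and the sequences run 5′ to 3′.
TFRC 3′ UTR, site 1: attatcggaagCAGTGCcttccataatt
TFRC 3′ UTR, site 2: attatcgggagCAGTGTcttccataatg
TFRC 3′ UTR, site 3: tgtatcggagaCAGTGAtctccatatgt
TFRC 3′ UTR, site 4: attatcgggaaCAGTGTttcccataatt
FTH1 5′ UTR: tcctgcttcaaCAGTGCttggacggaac
FTL 5′ UTR: tcttgcttcaaCAGTGTttggacggaac
SLC40A1 5′ UTR: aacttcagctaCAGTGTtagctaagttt
The loop starts with the same 5 bases in each by the search rule. A match is a description of the letters, and no binding was measured.

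Of the 4 genes, 3 have a promoter entry in RefSeq (GRCh38.p14), taken here as 250 bases before and 50 bases after the annotated start. The promoters were searched on both strands for AP-1 (TGANTCA), C/EBP (TTGCNNAA), CRE (TGACGTCA) and NF-kB motifs. AP-1 matches occur in 7.71% of 35116 promoters of this length, C/EBP matches in 10.5%, CRE matches in 1.85% and NF-kB matches in 11.3%. TFPI2 had an NF-kB match that begins 152 bases before the start and an AP-1 match that begins 87 bases before it. The promoters of DPP4 (chr2:162074166-162074465, minus strand) and TFRC (chr3:196082041-196082340, minus strand) held none of the 4 motifs in these windows. The TFPI2 promoter is printed 5′ to 3′ because it is the one with matches, which are in capitals (chr7:93890704-93891003, minus strand).
TFPI2: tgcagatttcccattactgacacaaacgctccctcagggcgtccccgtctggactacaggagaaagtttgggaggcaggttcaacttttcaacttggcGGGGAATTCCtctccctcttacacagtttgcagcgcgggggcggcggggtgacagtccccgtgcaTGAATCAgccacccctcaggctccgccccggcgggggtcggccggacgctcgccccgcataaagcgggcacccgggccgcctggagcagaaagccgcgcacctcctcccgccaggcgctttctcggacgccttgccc
The match for NF-kB comes first and that for AP-1 second. Whether either factor bound there was not measured.

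In the days that chose them the 4 genes fell into 2 patterns, by the day with the larger log2 difference between genotypes. DPP4 and SLC16A6 were already higher in shIL1R than in shScr cells before Ras was switched on, and lay below them by less at day 4. TFPI2 was also higher in shIL1R cells at day 0, but by less than it was lower at day 4. TFRC began at overlapping levels and was lower in shIL1R cells at day 4.

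At day 0 DPP4 was at 456 and 473 in shScr cells and at 876 and 1158 in shIL1R cells. At day 4 it was at 1489 and 1507 in shScr cells and at 1020 and 1220 in shIL1R cells. The genotypes did not overlap on either day, but their order was opposite. The mean of shScr cells was 3.22-fold higher at day 4 than at day 0, and that of shIL1R cells 1.10-fold. The shIL1R libraries of days 0 and 4 overlapped. On the log2 scale, where 1 was added to each value, the change was 1.69 in shScr and 0.15 in shIL1R cells. The difference between these changes, called the day 4 interaction below, was -1.54 ± 0.19 (SE). It combined 1.12 more in shIL1R cells at day 0 with 0.42 less at day 4, so most of it came from the starting level.

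SLC16A6 had the steepest increase of the 4 genes. At day 0 it was at 236 and 252 in shScr cells and at 399.6 and 476 in shIL1R cells. At day 4 the values were 5492 and 5758 in shScr cells and 4473 and 4065 in shIL1R cells. No library of one genotype lay within the range of the other on either day. The means had gone up 23.0-fold in shScr and 9.75-fold in shIL1R cells, so SLC16A6 was induced in both genotypes. The day 4 interaction was -1.23 ± 0.15 on the log2 scale, made up of a genotype difference of 0.84 at day 0 and of -0.40 at day 4. SLC16A6 lies inside ARSG, a sulfatase gene on the opposite strand, and the strand setting of the counting is not given in the sources used here. In shScr cells mean levels of ARSG were 125, 246 and 790 on the 3 days in turn, and in shIL1R cells they were 140, 226 and 663. The part of reads from one gene in the count of the other was not tested.

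At day 0 TFPI2 was at 4434 and 4873 in shScr cells and at 5265 and 5884 in shIL1R cells. At day 4 it was at 31027 and 31380 in shScr cells and at 18511 and 15909 in shIL1R cells. The increase was 6.71-fold in shScr and 3.09-fold in shIL1R cells, and the genotypes did not overlap on either day. The day 4 interaction of TFPI2 was -1.12 ± 0.15, with a genotype difference of 0.26 at day 0 and -0.86 at day 4. In contrast with DPP4 and SLC16A6, the larger share of the interaction lay at day 4.

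TFRC was the gene whose level moved in opposite directions. At day 0 it was at 2392 and 2359 in shScr cells and at 2294 and 2501 in shIL1R cells, with overlapping libraries. At day 4 it was at 3178 and 3103 in shScr cells and at 1719 and 1378 in shIL1R cells. Both shScr libraries of day 4 lay above those of day 0, and both shIL1R libraries lay below. The ratio of the day 4 to the day 0 mean was 1.32 in shScr and 0.646 in shIL1R cells. The genotype difference was 0.01 at day 0 and -1.03 at day 4, which gives an interaction of -1.04 ± 0.14. TFRC had the smallest interaction of the 4 in absolute size, and nearly all of it lay at day 4.

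**Figure D1:**
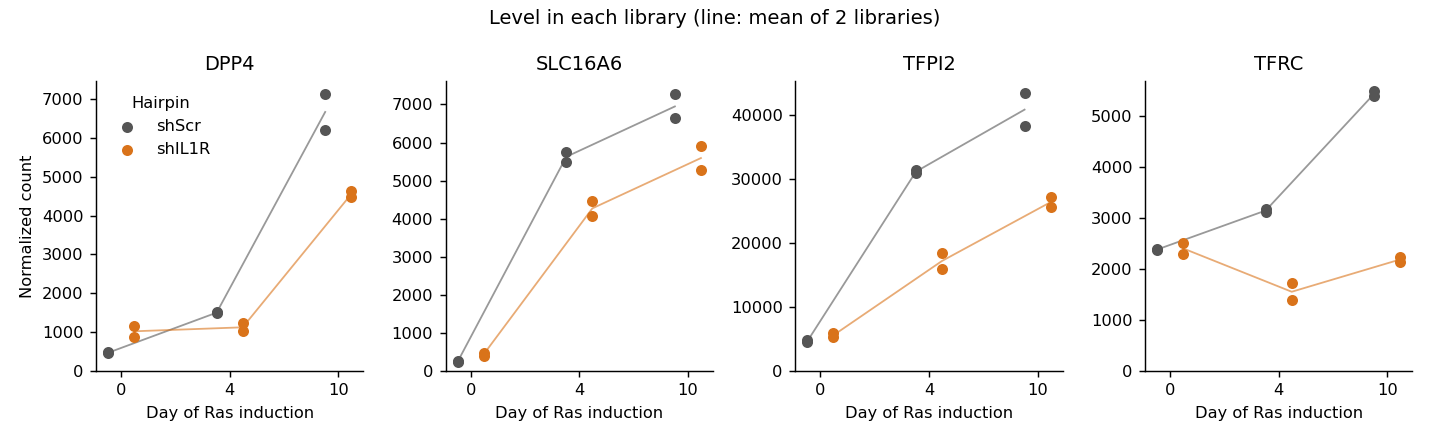
Normalized count (vertical axes, from 0) of DPP4, SLC16A6, TFPI2 and TFRC at days 0, 4 and 10 of Ras induction (evenly spaced), with a point for each library and lines through the mean of the 2 libraries of shScr and shIL1R cells. At day 4 all shIL1R points lie below the shScr points, and the TFRC line of shIL1R cells goes down from day 0 to day 4 while that of shScr cells goes up.

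The choice of these 4 genes sat close to its threshold. By limma the adjusted p of the day 4 interaction was 0.0319 for DPP4 and SLC16A6, 0.0420 for TFPI2 and 0.0495 for TFRC, just inside the limit of 0.05. These values describe the choice and support no result. Of the genes just outside the limit RHOB came nearest, with an interaction of -1.40 ± 0.20 (limma adjusted p = 0.0524). RHOB fell from day 0 to day 4 in both genotypes, with log2 changes of -0.50 in shScr and -1.90 in shIL1R cells. Next came TNFSF15, a TNF family cytokine (-3.04 ± 0.45), and HGF, the hepatocyte growth factor (-0.79 ± 0.12, limma adjusted p = 0.0601 for both). The 4 genes did not have the most negative interactions: 136 tested genes had a more negative value than DPP4, and 359 had a more negative value than TFRC. Their interactions ranged from -1.54 (DPP4) to -1.04 (TFRC). Their residual SDs, as moderated by eBayes across genes, ranged from 0.0998 (TFRC) to 0.131 (DPP4), against a median of 0.148 over all tested genes. The moderated SD of DPP4 was not unusual, as 5808 of the 13924 genes tested had a smaller one, against 2857 for TFRC. Without 1 library at a time, none of the 4 was called in 8 of 12 fits, and the number of genes called ranged from 0 to 26. DESeq2 on recovered reads called 101 genes, all 4 among them, and edgeR called 4. By limma 1525 genes had an unadjusted p under 0.05 for this interaction.

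At day 10, 3 of the 4 genes were called lower in shIL1R than in shScr cells, and TFRC alone kept that call when the day 10 libraries were fitted by themselves. Over all genes tested, 4.85% were called lower and 4.37% higher in shIL1R cells on that day. TFRC differed most, followed by TFPI2 and DPP4, while SLC16A6 did not pass. Both shIL1R libraries lay below both shScr libraries for all 4 genes, as they did for 25% of all genes tested. With 2 libraries a group an exact permutation test of one gene cannot go below p = 0.333, so the calls rest on the fit across all genes. The SEs come from the spread over all 12 libraries, which also entered the choice of these genes, so they are not independent of it.

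TFRC was at 5384 and 5473 in shScr cells and at 2127 and 2237 in shIL1R cells at day 10. The mean was 2.49-fold higher in shScr cells, a log2 difference of -1.31 ± 0.10 (SE, limma adjusted p = 8.97e-05, lower in 2 of 2 shIL1R libraries). The 95% interval of this difference was -1.53 to -1.10, and 6 tested genes had a smaller p-value. The TFRC mean of shScr cells at day 10 was 2.29 times that at day 0. In shIL1R cells the ratio was 0.910, so TFRC ended near its starting level. TFRC kept its call in all 24 alternative settings, the fit of the day 10 libraries alone included (limma adjusted p = 0.0147).

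TFPI2 was at 43442 and 38381 in shScr cells and at 25609 and 27237 in shIL1R cells at day 10. This is a 1.55-fold difference of means and a log2 difference of -0.63 ± 0.10 (SE, limma adjusted p = 0.00592), with a 95% interval from -0.85 to -0.40. It was smaller than the difference of 1.81-fold at day 4, a comparison of values that was not tested. In both genotypes TFPI2 was well above day 0, 8.79-fold in shScr and 4.74-fold in shIL1R cells.

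DPP4 was at 6205 and 7131 in shScr cells and at 4622 and 4479 in shIL1R cells at day 10. Its mean was 1.47-fold higher in shScr cells, with a log2 difference of -0.55 ± 0.13 (SE, limma adjusted p = 0.0285) and a 95% interval from -0.84 to -0.26. Most of the increase of DPP4 came after day 4: the log2 change from day 4 to day 10 was 2.15 in shScr and 2.03 in shIL1R cells. Its call was lost without shScr day 10 replicate 2 (log2 difference -0.45, limma adjusted p = 0.237) and without shIL1R day 10 replicate 2 (-0.52, limma adjusted p = 0.0824). In the day 10 libraries alone, where the spread comes from those 4 libraries, DPP4 (limma adjusted p = 0.121) and TFPI2 (limma adjusted p = 0.132) were not called, and 73 genes were called in place of 1283.

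SLC16A6 was at 7264 and 6631 in shScr cells and at 5265 and 5918 in shIL1R cells at day 10. The log2 difference was -0.31 ± 0.10 (SE, limma adjusted p = 0.0830), and its 95% interval of -0.54 to -0.08 leaves room for a difference as large as that at day 4. From day 4 to day 10 SLC16A6 differed by 0.30 in shScr and 0.39 in shIL1R cells on the log2 scale, so its induction lay mostly before day 4.

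**Figure D2:**
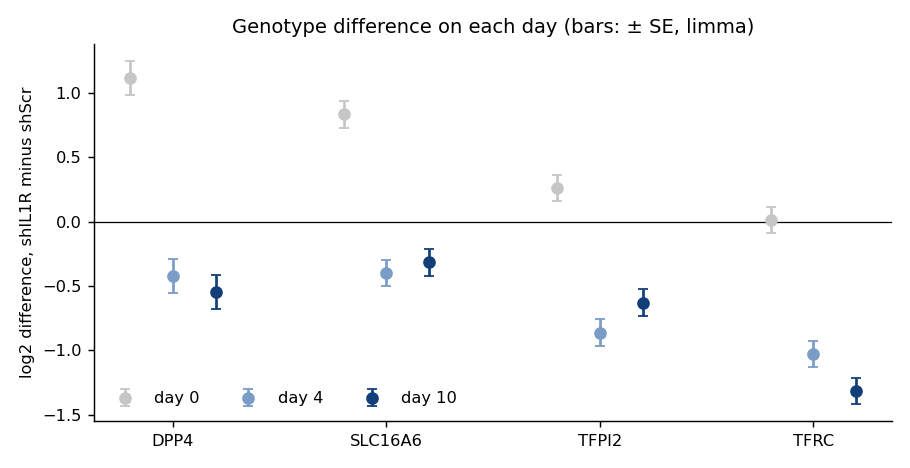
Log2 difference of shIL1R minus shScr cells (vertical axis) for DPP4, SLC16A6, TFPI2 and TFRC at days 0, 4 and 10, with the SE of the limma fit as bars. DPP4 and SLC16A6 lie above 0 at day 0 (1.12 and 0.84) and below 0 on both later days, whereas TFRC lies at 0.01 at day 0 and at -1.03 and -1.31 afterwards.

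Ranked by group mean, the genes differed in where the genotypes stood. For DPP4 the order from lowest to highest was shScr day 0 (464 ± 12.4, SD, n = 2), shIL1R day 0 (1017 ± 199), shIL1R day 4 (1120 ± 142), shScr day 4 (1498 ± 12.8), shIL1R day 10 (4550.5 ± 102) and shScr day 10 (6668 ± 655). The shIL1R groups of days 0 and 4 overlapped, and the other neighbours did not. For SLC16A6 the order was shScr day 0 (244 ± 11.3), shIL1R day 0 (438 ± 54.0), shIL1R day 4 (4269 ± 288), shIL1R day 10 (5591 ± 462), shScr day 4 (5625 ± 188) and shScr day 10 (6948 ± 448). The shIL1R cells thus reached by day 10 the level of shScr cells at day 4, with overlapping libraries.

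For TFPI2 the order was shScr day 0 (4653 ± 310, SD, n = 2), shIL1R day 0 (5574 ± 437), shIL1R day 4 (17210 ± 1840), shIL1R day 10 (26423 ± 1151), shScr day 4 (31204 ± 250) and shScr day 10 (40911 ± 3579). No neighbours in it overlapped, and the shIL1R cells at day 10 were still below shScr cells at day 4. For TFRC the order was shIL1R day 4 (1548 ± 242), shIL1R day 10 (2182 ± 77.7), shScr day 0 (2376 ± 23.5), shIL1R day 0 (2398 ± 146), shScr day 4 (3140 ± 53.3) and shScr day 10 (5429 ± 62.4). The day 0 groups overlapped, and every induced shIL1R library lay below every day 0 library. In these bulk samples fewer cells with a transcript and less of it per cell cannot be told apart.

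Other measures also differed between the genotypes on some of the days. HRAS, a Ras gene, was at 43044 and 43386 in shScr and 41321 and 41405 in shIL1R cells at day 0. The part of its reads that came from the RasERT2 construct was not tested. On day 4 it was at 29774 and 23750 against 19278 and 15523, and on day 10 at 51791 and 50789 against 37518 and 25280. HRAS levels were thus lower in shIL1R cells on both induced days. The log2 difference was not called at day 4 (-0.62 ± 0.17, SE, limma adjusted p = 0.117) and was called at day 10 (-0.74 ± 0.17, limma adjusted p = 0.0257). The summed level was also taken for 5 proliferation genes (MKI67, TOP2A, CCNB1, CDC20 and LMNB1). At day 0 it was 42851 and 46407 in shScr and 39748 and 37770 in shIL1R cells. At day 4 it was 9370 and 8405 in shScr and 11220 and 12674 in shIL1R cells, in the opposite order. At day 10 it was 1110 and 1250 in shScr cells and 1239 and 3281 in shIL1R cells. These groups overlapped, and the highest value was that of the replicate 2 that stood apart. The part of HRAS level and of proliferation in the differences of the 4 genes was not tested. Without that replicate the day 10 log2 difference was -1.35 for TFRC, -0.67 for TFPI2 and -0.52 for DPP4.

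**Figure D3:**
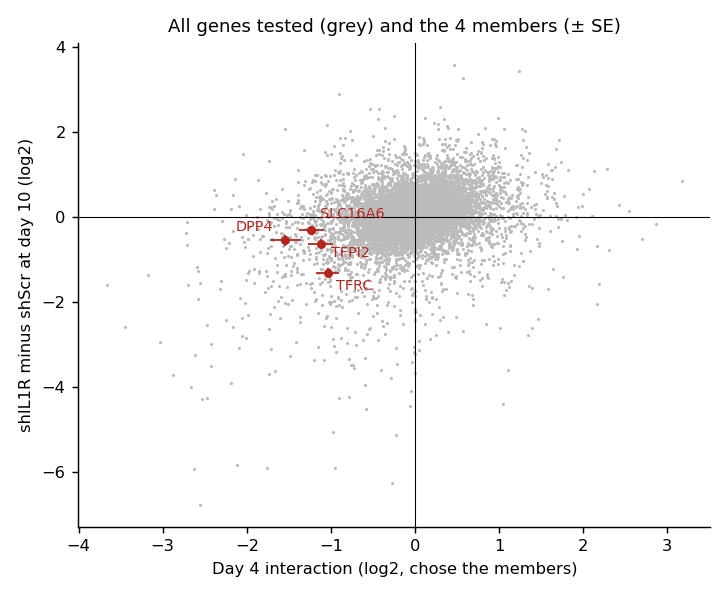
Day 4 interaction (horizontal axis, log2, the value that chose the genes) against the difference of shIL1R minus shScr cells at day 10 (vertical axis, log2) for the 13924 genes tested (grey) and the 4 chosen genes (labelled, with SE). The 4 lie in the lower left part of the plot, with TFRC the lowest at -1.31 on the vertical axis, and many grey points have more negative interactions.

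TFRC was next set beside 32 other genes of iron uptake, storage and export, 24 of which were tested. At day 10, 2 of the 24 were called higher and 3 lower in shIL1R cells, where 4.37% and 4.85% of all genes tested were. The median log2 difference was -0.21, against -0.00 over all genes tested. SLC11A2, the transporter that moves iron out of endosomes after uptake through the transferrin receptor, was also lower in shIL1R cells at day 10. Its libraries still overlapped at day 4 (1164 and 999 in shScr cells, 1015 and 1259 in shIL1R cells). From day 0 to day 10 its mean went from 886 to 2612 in shScr cells and from 1103 to 1166 in shIL1R cells. At day 10 SLC11A2 was at 2488 and 2737 in shScr cells and 1216 and 1116 in shIL1R cells. This is a log2 difference of -1.16 ± 0.12 (SE, limma adjusted p = 0.000798), called in all 24 alternative settings. SLC25A37, the mitochondrial iron importer mitoferrin, was at 2808 and 2387 against 1603 and 1466, a log2 difference of -0.76 ± 0.11 (limma adjusted p = 0.00396). ACO1, the cytosolic aconitase that doubles as an iron-regulatory protein, was also lower (log2 difference -0.47, limma adjusted p = 0.0100).

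Ferroportin went the other way. SLC40A1 was low throughout, at 17.7 and 20.3 in shScr cells and 58.8 and 48.5 in shIL1R cells at day 10, a log2 difference of 1.45 ± 0.28 (SE, limma adjusted p = 0.0130). CYBRD1, a ferric reductase, was the other gene called higher (0.59, limma adjusted p = 0.00502). The ferritin chains were not called: FTH1 averaged 48117 ± 4893 (SD, n = 2) in shScr and 36911 ± 7679 in shIL1R cells, and FTL 171138 ± 25935 and 140422 ± 65930. Both ferritin genes have many processed pseudogenes that can share their reads, so their counts are uncertain. So at day 10 shIL1R cells had less RNA of TFRC, SLC11A2, SLC25A37 and ACO1 and more of SLC40A1 and CYBRD1, and the other tested iron genes were not called. However, SLC40A1, CYBRD1 and ACO1 lost their calls without shScr day 10 replicate 2. Of the 24 genes SLC11A2 alone kept its call in the day 10 libraries by themselves. Without shScr day 10 replicate 2 the iron list had 2 called genes, without shIL1R day 10 replicate 1 it had 12, and in the day 10 libraries alone 1.

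From day 0 to day 4, 6 of the 24 iron genes were called higher and 3 lower in shScr cells, where 19.4% and 18.9% of all genes tested were. In shIL1R cells 7 were called higher and 6 lower, where 20.1% and 20.3% of all genes were. SLC40A1 fell in both (log2 changes of -2.05 in shScr and -2.03 in shIL1R cells). HMOX1, heme oxygenase, rose by 1.42 ± 0.34 and 1.85 ± 0.34, and the metalloreductase STEAP1 by 1.82 ± 0.44 and 1.52 ± 0.44. The counts were lower without some libraries: 4 genes in shScr cells without shScr day 0 replicate 1, and 8, 5 and 7 in shIL1R cells without day 0 replicate 1, day 0 replicate 2 and day 4 replicate 2. SLC40A1 kept both calls, whereas STEAP1 and HMOX1 lost theirs in shScr cells without day 0 replicate 1, as did HMOX1 without day 4 replicate 1. In shIL1R cells STEAP1 lost its call without day 0 replicate 2 and without day 4 replicate 1. None of the 24 passed limma in the interaction that chose TFRC, with 2 at an unadjusted p under 0.05 and none called by edgeR or DESeq2. Among those whose higher group averaged 50 normalized counts or more, HMOX1 (0.43, limma adjusted p = 0.791) and ACO1 (-0.40 ± 0.12, limma adjusted p = 0.316) had the largest absolute values.

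DPP4 was set beside 19 other surface or post-proline peptidases, of which 17 were tested. ANPEP, the aminopeptidase CD13, was at 10385 and 12077 in shScr cells and 5492 and 4825 in shIL1R cells at day 10. It was lower by a log2 difference of -1.12 ± 0.11 (SE, limma adjusted p = 0.000538), larger than that of DPP4, and was called in all 24 alternative settings. ACE, the angiotensin-converting enzyme, was higher, at 496 and 494 in shIL1R cells against 229 and 242 (1.07 ± 0.19, limma adjusted p = 0.00815). These were the 2 called genes of the list, and its median was -0.16. Over all genes tested 4.37% were called higher and 4.85% lower. ACE lost its call without shScr day 10 replicate 2 and in the day 10 libraries alone, and without shIL1R day 10 replicate 1 the list had 5 called genes. FAP, the closest relative of DPP4, was not called.

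From day 0 to day 4, 10 of the 17 peptidases were called higher and 1 lower in shScr cells, where 19.4% and 18.9% of all genes were. The counts were also 10 and 1 in shIL1R cells, where 20.1% and 20.3% of all genes were, and the median was 0.38 in each. ANPEP rose by 1.90 ± 0.11 in shScr and 1.78 ± 0.11 in shIL1R cells on the log2 scale. FAP, a marker of activated fibroblasts, rose by 1.65 in both, and ACE by 1.68 and 1.45. The interaction of these 3 was not called, and none of the calls in either genotype was lost in the 24 alternative settings. In the interaction none of the 17 was called by limma or edgeR, 4 had an unadjusted p under 0.05, and DESeq2 called 1. Of the other peptidases whose higher group averaged 50 normalized counts or more, MME, the endopeptidase neprilysin, had the most negative value (-0.61 ± 0.16, limma adjusted p = 0.287).

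SLC16A6 was set beside 17 other monocarboxylate transporters and their chaperones, 11 of them tested. At day 10 SLC16A4 was called higher in shIL1R cells (0.69 ± 0.17, limma adjusted p = 0.0309), at 490.4 and 568 against 321 and 333. The lactate transporters SLC16A1 and SLC16A3 were called lower. Of all genes tested, 4.37% were called higher and 4.85% lower. SLC16A1 was at 1918 and 2198 in shScr cells and 1498 and 1179 in shIL1R cells (-0.63 ± 0.11, limma adjusted p = 0.00873). SLC16A3 was at 25242 and 26861 against 17733 and 20537 (-0.45 ± 0.09, limma adjusted p = 0.0142). The median of the list was 0.13, and all 3 calls were lost without shScr day 10 replicate 2, in the day 10 libraries alone and with a replicate block within genotype. That of SLC16A4 was also lost without either library of shScr day 0, shScr day 10 replicate 1 or shIL1R day 10 replicate 2.

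None of the other tested transporters had a day 4 change as large as that of SLC16A6. From day 0 to day 4, 2 of the 11 were called higher and 3 lower in shScr cells, where 19.4% and 18.9% of all genes were. In shIL1R cells 1 was called higher and 3 lower, where 20.1% and 20.3% of all genes were. The medians were -0.11 in shScr and -0.37 in shIL1R cells. SLC16A4 rose by 0.94 and 0.60 on the log2 scale, while SLC16A14 fell (-1.24 and -0.81), as did SLC16A7 (-1.05 and -1.39). In shIL1R cells the calls of SLC16A4 and SLC16A14 were each lost without some of the compared libraries, and 2 genes were called without either library of day 0. In shScr cells 3 were called without day 0 replicate 1. In the interaction none of the 11 was called by limma, edgeR or DESeq2, none had an unadjusted p under 0.05, and the lowest limma adjusted p was 0.502.

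TFPI2 was set beside 22 genes of Kunitz inhibitors, the tissue factor pathway and protease-activated receptors, 17 of them tested. At day 10 none of the 17 was called by limma or edgeR, while limma called 4.37% of all genes tested higher and 4.85% lower. Of the 17, 5 had an unadjusted p under 0.05 and 1 was called by DESeq2, and the median was -0.02. THBD, thrombomodulin, came closest: it was at 1061 and 1247 in shScr cells and at 718 and 158 in shIL1R cells (-1.77 ± 0.53, limma adjusted p = 0.0598). Without shIL1R day 10 replicate 1 the list had 5 called genes, and without replicate 2 it had 2.

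At day 4 this list had 12 of 17 genes called higher and 1 lower in shScr cells, and 6 higher and 2 lower in shIL1R cells. Over all genes tested the shares were 19.4% and 18.9% in shScr and 20.1% and 20.3% in shIL1R cells. The medians were 0.53 and 0.36. The count in shScr cells dropped to 8 genes in all without either library of shScr day 0 and to 7 without shScr day 4 replicate 1. COL7A1, a collagen with a Kunitz domain, rose by 2.36 ± 0.33 in shScr cells. F2RL1, a protease-activated receptor, rose by 1.75 in shScr and 1.49 in shIL1R cells on the log2 scale. The median interaction of the list was -0.40, against -0.00 over all genes tested, but none of the 17 was called by limma or edgeR, 4 had an unadjusted p under 0.05 and DESeq2 called 1. Among those whose higher group averaged 50 normalized counts or more, the largest absolute values were those of COL7A1 (-1.59 ± 0.47, limma adjusted p = 0.316) and F3, tissue factor itself (-0.89 ± 0.21, limma adjusted p = 0.260). F3 resembled DPP4 in its starting level: at day 0 it was at 13387 and 11483 in shScr and 20486 and 24076 in shIL1R cells. By day 4 it was at 19871 and 19520 against 18998 and 19009.

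**Figure D4:**
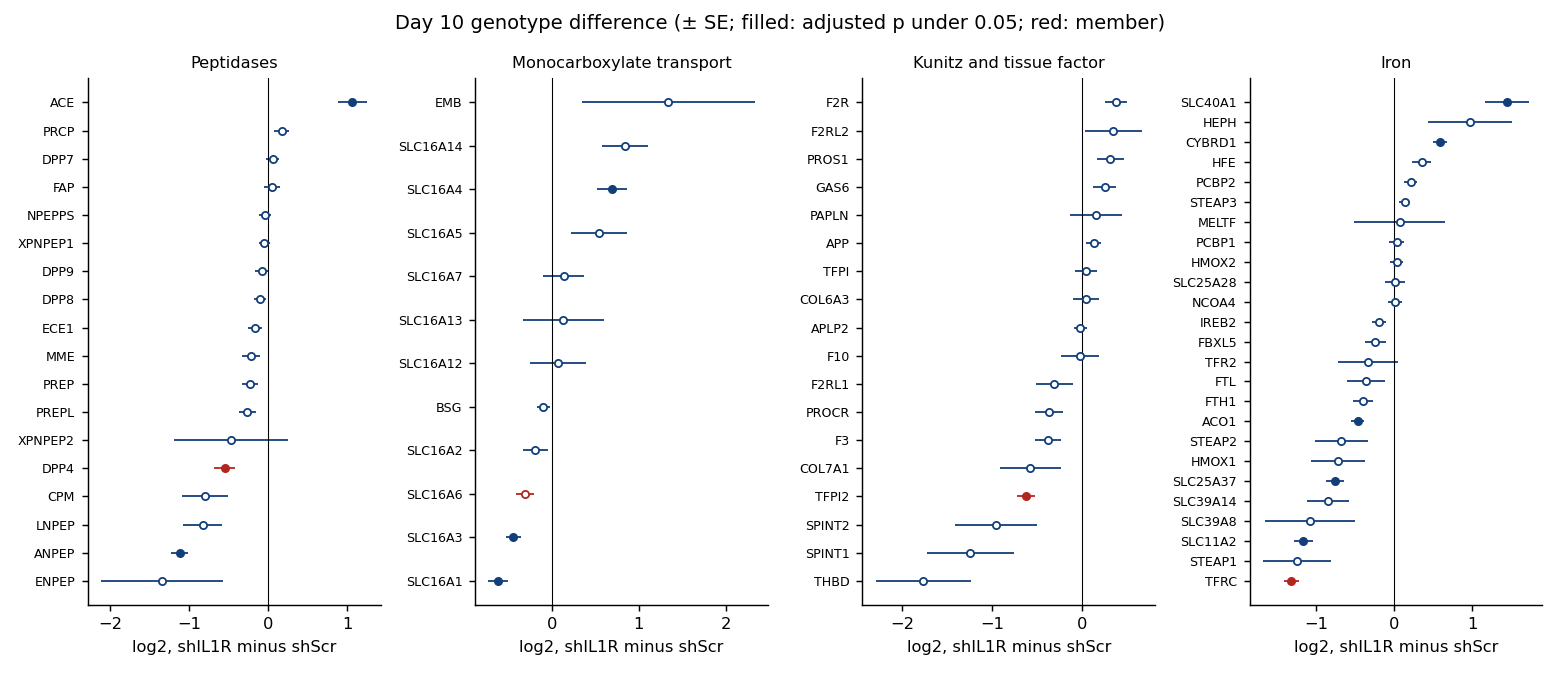
Log2 difference of shIL1R minus shScr cells at day 10 (horizontal axes, with SE) for the tested genes of the peptidase, monocarboxylate transporter, Kunitz and tissue factor, and iron lists, with called genes filled and DPP4, SLC16A6, TFPI2 and TFRC in red. TFRC (-1.31) and SLC11A2 (-1.16) lie at the low end of the iron list and SLC40A1 (1.45) at its high end, and in the peptidase list ANPEP (-1.12) lies below DPP4 (-0.55).

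Across the 12 libraries SLC16A6 and TFPI2 followed each other most closely among the 4 genes (Pearson's r = 0.976 on log2 values). The correlation was 0.827 for DPP4 with TFPI2 and 0.781 for DPP4 with SLC16A6. TFRC stood apart, with 0.554 to DPP4, 0.458 to TFPI2 and 0.270 to SLC16A6. The libraries form 6 groups along the same days, so these values describe the shared time course and carry no p-value.

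The genes with the most similar pattern were sought among the 11310 tested genes whose mean reached 50 normalized counts. For SLC16A6 they were BHLHE40 (r = 0.989), XKRX, ST3GAL5, DOCK6 and TRIB1. For TFPI2 they were COL10A1 (r = 0.990), TRIB1, SPRED3, UST and WNT7B, so the pseudokinase gene TRIB1 stood in both sets. For DPP4 they were LZTS3 (r = 0.986), SARAF, DTNA, MCTP1 and ATP6AP1. The genes most like TFRC were PDE12 (r = 0.962), NSF (0.957), HBEGF (0.944), HECTD2 (0.918) and IL6 (0.916). TFRC had the weakest matches of the 4.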

How the data were processed

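The deposited file holds normalized counts, a signal per gene in which the reads of a library were scaled by its size factor. The submitters' processing notes name TopHat, HTSeq and DESeq2 as tools and hg19 as the genome build. Versions, annotation and strand setting are not given in the sources used here. Every value was a whole multiple, within 0.001 reads, of what 1 read is worth in its library, so reads could be recovered. Of 27106 genes, 6344 were at 0 in all libraries, and testing was limited to the 13924 that reached 10 normalized counts in 2 or more libraries. All 4 members passed in every library.

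Values were tested as log2(value + 1) by limma (3.58.1, under R 4.3.3), fitted to the 12 libraries with a mean for each of 6 groups, followed by eBayes with a trend (degrees of freedom: residual 6, prior 4.98). The p-values were two-sided, adjusted after Benjamini and Hochberg over all genes tested, and called below 0.05. The log2 scale slightly understates changes of low genes. Alternatives included count tests on the recovered reads (edgeR 4.0.16, DESeq2 1.42.0).

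The members and lists were chosen with earlier results of these data known. Named genes were the members, IL1R1, HRAS, for each list and comparison the called genes of largest change (up to 3) whose mean reached 50 normalized counts in the higher group (or 2 genes where none was called), and the 5 most correlated genes of each member. RHOB, TNFSF15, HGF, ARSG, CYBRD1, FTH1 and FTL, and genes of a named list in a further comparison, were named after their values were seen. Iron-responsive elements were searched in GENCODE v29 transcripts, and promoters came from RefSeq (GRCh38.p14).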

Additional observations from a re-analysis of the deposited data

Results flagged for a closer look

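TFRC differed in direction between the genotypes from day 0 to day 4. Both shScr libraries of day 4 lay above both of day 0, and both shIL1R libraries of day 4 lay below both of day 0, with a log2 difference between these changes of -1.04. TFRC was chosen by this difference, so it was not tested in data independent of the choice.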

How the results depend on the processing

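There were 24 alternatives, and no direction of the 4 genes reversed. At day 10 DPP4 was not called after quantile normalization (-0.45), in the day 10 libraries alone (-0.55) or with a replicate block within genotype (-0.60), and lay from -0.65 to -0.45 without 1 library at a time. TFPI2 was not called in the day 10 libraries alone (-0.63), and DESeq2 called SLC16A6 (-0.31, DESeq2 adjusted p = 0.0496). TFRC was called in all 24. Without 1 library at a time the day 4 interaction ranged from -1.74 to -1.34 (DPP4), -1.36 to -1.11 (SLC16A6), -1.23 to -1.01 (TFPI2) and -1.20 to -0.88 (TFRC). It had 4 called genes, but 0 without the filter, 1 after quantile normalization, 0 with the block within genotype, 101 by DESeq2, and 0 to 26 without 1 library. The day 10 difference had 1283 called genes, but 272 with the block within genotype, 73 in its own libraries alone, and 111 (without shScr day 10 replicate 2) to 3519 (without shIL1R day 10 replicate 1). The day 4 change had 5326 called genes in shScr cells (3332 to 6340 without 1 library) and 5627 in shIL1R cells (3622 to 6684). Scaling by TMM or quantiles moved the medians by at most 0.0231. The cause of these changes was not tested.

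The replicate numbers were not taken as pairs: deviations from the group means correlated from -0.10 to 0.23 over 15 pairs of groups, 4 of them over 0.1. Within shIL1R cells, where the numbers could stand for the hairpins, the correlations were 0.23, 0.20 and 0.05. With a replicate block over all libraries the day 10 log2 difference was -0.55 for DPP4, called as before (limma adjusted p = 0.0179), and 4 genes were called in the interaction, 2 of them among the chosen 4. The lowest level of the 4 genes was 236 normalized counts (SLC16A6 at day 0).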
